A study of Mus musculus with 6 samples.

Results

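The genes described here are those of MHC class II antigen presentation in the mouse, with Ciita, the coactivator that controls them. A list of 10 members was used: H2-Ab1, H2-Aa, H2-Eb1, H2-DMa, H2-DMb1, H2-DMb2, H2-Oa, H2-Ob, Cd74 and Ciita. A member was read where a probe set carried its symbol and no other. That held for 8 members, of 19938 genes in all, and each of the 8 had a single probe set. H2-DMb1 and H2-DMb2 share 1 probe set that names both, so they were left out.

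The 6 arrays hold RNA of cells sorted from mouse bone marrow, and each of the 3 groups has 2 arrays, labelled as biological replicates. Marrow of C57BL/6 (B6) donors treated with 5-fluorouracil was infected with a retrovirus and given to recipients of the same strain; the labels give an age of 8 weeks and a WT genotype for every group. The BCR-ABL-Blk group received a virus with BCR-ABL, the tyrosine kinase of chronic myeloid leukemia, together with Blk, a Src family kinase, and GFP. The BCR-ABL group received BCR-ABL with GFP, and the vector group GFP alone. On day 14 after transplantation, cells that carried GFP, c-Kit and Sca-1 but no lineage marker were sorted; the labels call them LSCs in both BCR-ABL groups and HSCs in the vector group. How many mice made up a replicate is not stated, nor whether they shared a day, so p-values measure the spread between these samples. All values are log2 signals, quantile normalized between arrays because the deposited columns had medians from 7.01 to 7.52. The number of arrays limits the precision: the median standard error of a group difference over all genes was 0.129.

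Class II molecules are pairs of an alpha and a beta chain that show peptides to CD4+ T cells. The invariant chain Cd74 fills the groove of a new pair, H2-DM later exchanges the last piece of Cd74 for a peptide, and H2-DO holds H2-DM back. Ciita does not bind DNA itself: it joins RFX, NF-Y and CREB proteins that sit on a shared set of promoter elements, the X and Y boxes. In marrow these genes are known from dendritic cells, B cells and monocytes, and class II has also been described on some blood stem and progenitor cells.

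Promoters are shown for members with large (H2-Aa, H2-Eb1), intermediate (H2-Ob) and small (H2-Oa) differences, so that the shared elements can be seen. Each line gives the 150 bases before the RefSeq transcription start (RefSeq, GRCm38.p6), read 5′ to 3′ in the direction of the gene. Capitals mark the letters searched on both strands of the window from 250 bases before to 50 bases after the start: TGATTGG for the Y box, CNNATGATG for the X box and TGACGTCA for a CREB site (CRE). These letters were chosen with the sequences in view.
H2-Aa (chr17:34287824-34287973, minus strand): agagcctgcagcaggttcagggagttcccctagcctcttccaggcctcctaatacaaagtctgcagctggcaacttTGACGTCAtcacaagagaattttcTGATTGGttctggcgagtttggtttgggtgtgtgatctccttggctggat
H2-Eb1 (chr17:34305717-34305866, plus strand): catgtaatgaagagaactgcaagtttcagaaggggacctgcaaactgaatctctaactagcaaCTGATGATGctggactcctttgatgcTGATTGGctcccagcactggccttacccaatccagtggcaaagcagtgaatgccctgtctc
H2-Ob (chr17:34238755-34238904, plus strand): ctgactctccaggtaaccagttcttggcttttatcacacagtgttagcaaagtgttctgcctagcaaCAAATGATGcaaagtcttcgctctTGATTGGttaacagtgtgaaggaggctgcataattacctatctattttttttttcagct
H2-Oa (chr17:34092229-34092378, plus strand): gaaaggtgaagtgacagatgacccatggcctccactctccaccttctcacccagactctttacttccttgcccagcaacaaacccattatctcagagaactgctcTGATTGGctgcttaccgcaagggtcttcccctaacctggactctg

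Of the 10 members, 7 had a promoter in the table; H2-Ab1, Cd74 and Ciita are not shown. The Y box letters stood in 6 of the 7 (H2-Aa, H2-Eb1, H2-Ob, H2-Oa, H2-DMb1 and H2-DMb2), against 7.82% of all 32851 promoters. The X box letters stood in 4 of the 7 (H2-Eb1, H2-Ob, H2-DMb1 and H2-DMb2), against 2.75% of all promoters. Both together were found in 57 promoters of 54 genes (0.174% of promoters), and 4 of those genes were the members just named. Since the letters were chosen with member sequences in view, these shares describe the spelling and are no test. In these 4 the X box ended 15 to 18 bases before the Y box, and in H2-Aa the CRE, found in 1.79% of promoters, ended 16 bases before it. H2-Oa had the Y box letters and neither of the other spellings, and the 2 windows listed for H2-DMa had none of them. A match is a description of letters and no match says only that these letters are not in the window. An X box spelled otherwise would be missed, in H2-Oa, H2-Aa and H2-DMa alike.

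BCR-ABL cells were compared with vector cells to ask what the oncogene does to this gene group. All 8 measured members had lower means in BCR-ABL cells, where 45.6% of all genes did, with a median difference of −1.03 on the log2 scale, while the median over all genes was 0.02. The chains of H2-A, the beta chain of H2-E and the invariant chain Cd74 were at least 2-fold lower (2.4-fold to 3.62-fold), where 0.431% of all genes were, and H2-Oa, the alpha chain of H2-DO, differed least. H2-Ab1 alone fell past the test over all genes (limma, adjusted p under 0.05). Of all 19938 genes 0.0251% fell by this test, 5 genes in all. At an unadjusted p under 0.05, 7 of the 8 were lower, where 2.96% of all genes were, and 0 were higher, where 5.67% were. Since the members were chosen with results of these data known, these counts describe the list.

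H2-Ab1, the beta chain of H2-A, read 10.06 and 10.41 in BCR-ABL cells (replicates 1 and 2 here and below), against 11.62 and 11.62 in vector cells. Both BCR-ABL arrays lay far below both vector arrays, whose normalized values were identical. The difference was −1.38 (SE 0.14, adjusted p = 0.0206), which is 2.61-fold lower. H2-Aa, its alpha chain partner, read 9.57 and 9.74 in BCR-ABL cells, against 11.37 and 10.66 in vector cells. The groups did not overlap, but the vector arrays differed by 0.71 from each other. The difference was −1.36 (SE 0.22, adjusted p = 0.0841). H2-Eb1, the beta chain of H2-E, read 8.68 and 9.17 in BCR-ABL cells, against 10.45 and 9.93 in vector cells. The groups again stood apart, with 0.52 between the vector arrays, and the difference was −1.26 (SE 0.24, adjusted p = 0.132).

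The invariant chain Cd74, which escorts class II pairs to the compartment where peptides are loaded, read 8.19 and 9.15 in BCR-ABL cells, against 10.54 and 10.51 in vector cells. Replicate 1 of BCR-ABL was the lowest of all 6 arrays, and both BCR-ABL arrays lay below vector. The difference was the largest of the 8 members, −1.86 or 3.62-fold lower, with an SE of 0.28 (adjusted p = 0.0677). The larger SE comes with a gap of about 1 log2 unit between the BCR-ABL arrays, where the SD was 0.68.

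The accessory chains differed by less. H2-DMa, the alpha chain of the peptide exchanger H2-DM, read 9.86 and 10.08 in BCR-ABL cells, against 10.53 and 10.60 in vector cells. These groups did not overlap either (difference −0.59, SE 0.15, adjusted p = 0.24). H2-Ob, the beta chain of H2-DO, read 8.53 and 8.70 in BCR-ABL cells, against 9.71 and 9.10 in vector cells. Its difference was −0.79 (SE 0.21, adjusted p = 0.306), and replicate 1 of vector was clearly the highest array. Without that array H2-Ob was at −0.477 in BCR-ABL cells. H2-Oa, the partner of H2-Ob in H2-DO, read 8.57 and 8.80 in BCR-ABL cells, against 8.70 and 8.77 in vector cells. Its groups overlapped, and the difference of −0.05 had a 95% interval of −0.40 to 0.30. H2-Ob minus H2-Oa was −0.04 and −0.10 on the BCR-ABL arrays, against 1.02 and 0.32 on the vector arrays. This difference, read only for how it varied between arrays, was largest on vector replicate 1 and was not tested.

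Ciita read 6.98 and 7.11 in BCR-ABL cells, against 7.34 and 7.61 in vector cells. Both BCR-ABL arrays lay below both vector arrays, and the difference was −0.43, or 1.35-fold lower (SE 0.13, adjusted p = 0.358). Ciita had a mean below 7.50, the median gene level, in BCR-ABL-Blk, BCR-ABL and vector cells alike. Signal over background was not measured, so how well the fold of a dim gene is measured is not known. Arrays of BCR-ABL and vector did not overlap in 7 of the 8 members, each lower in BCR-ABL; that held for 14.9% of all genes.

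**Figure D1:**
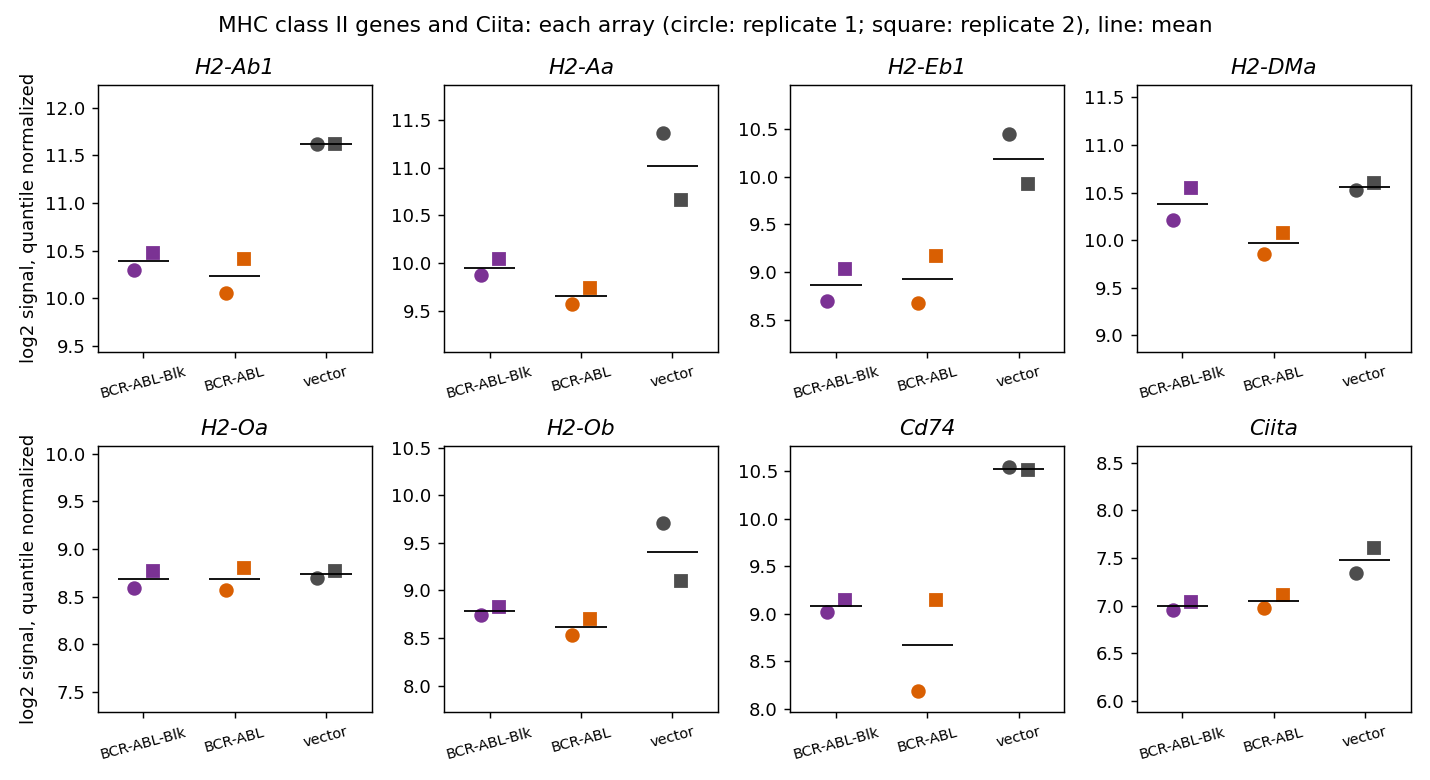
Log2 signal of the 8 measured genes (y axis, each panel spanning the same range of log2 units) on each array of the BCR-ABL-Blk, BCR-ABL and vector groups (x axis), with circles for replicate 1, squares for replicate 2 and lines for group means. All 4 arrays with BCR-ABL lie below both vector arrays for every gene except H2-DMa and H2-Oa.

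The H2-Ab1 call depended on which arrays and settings were used. It ended without BCR-ABL replicate 1 (adjusted p = 0.149) or replicate 2 (adjusted p = 0.0945), which left 0 members called. It also ended with arrays centred on their medians (adjusted p = 0.143), without an intensity trend (0.0511) or over all probe sets (0.247). Without vector replicate 1, 3 members passed (H2-Ab1, H2-Aa and Cd74), and without vector replicate 2, 4 passed (H2-Ab1, H2-Aa, H2-Eb1 and H2-Ob).

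BCR-ABL-Blk cells were compared with the same vector arrays, so both comparisons share their 2 controls. Cd74 had the lowest difference and H2-Oa the one nearest 0. All 8 members had lower means than in vector cells (48.7% of all genes did), and 4 were at least 2-fold lower (0.657% of all genes were), with a median difference of −0.84 against 0.004 over all genes. H2-Ab1 fell past the test over all genes, where 0.0451% of all genes fell (9 genes), and 6 of the 8 were lower at an unadjusted p under 0.05, where 4.11% of all genes were.

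H2-Ab1 read 10.30 and 10.48 in BCR-ABL-Blk cells, far below the 11.62 of both vector arrays. It was 2.34-fold lower (difference −1.22, SE 0.14, adjusted p = 0.0408). H2-Aa read 9.87 and 10.04 in BCR-ABL-Blk cells, below both vector arrays (11.37 and 10.66), and differed by −1.06 (SE 0.22, adjusted p = 0.138). H2-Eb1 read 8.70 and 9.03, against 10.45 and 9.93 in vector cells, and differed by −1.33 (SE 0.24, adjusted p = 0.101). For H2-Ab1, H2-Aa and H2-Eb1, no array of BCR-ABL-Blk reached a vector array. Cd74 read 9.02 and 9.15 in BCR-ABL-Blk cells, against 10.54 and 10.51 in vector cells, with arrays that agreed closely within each group. Its difference was −1.44 (SE 0.28, adjusted p = 0.123), 2.71-fold lower.

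The DM and DO chains and Ciita completed the picture. H2-DMa read 10.21 and 10.55 in BCR-ABL-Blk cells, against 10.53 and 10.60 in vector cells. These groups overlapped, and the difference of −0.18 had a 95% interval of −0.53 to 0.16. H2-Ob read 8.74 and 8.83, against 9.71 and 9.10 in vector cells (difference −0.62, SE 0.21, adjusted p = 0.389), and differed by −0.307 without vector replicate 1. H2-Oa read 8.59 and 8.77, against 8.70 and 8.77 in vector cells (difference −0.05, 95% interval −0.40 to 0.30). Thus the H2-Ob arrays stood apart and those of H2-Oa did not. Ciita read 6.95 and 7.04 in BCR-ABL-Blk cells, below 7.34 and 7.61 in vector cells (difference −0.48, SE 0.13, adjusted p = 0.268). Arrays lay apart, all lower, in 6 of the 8 members and in 17.5% of all genes. The H2-Ab1 call ended without either BCR-ABL-Blk array (adjusted p = 0.138 without replicate 1 and 0.107 without replicate 2). It also ended without either BCR-ABL array, which only lends its spread here (adjusted p = 0.0763 and 0.0785), and in 6 of the 9 other alternatives. Without vector replicate 2, 3 members passed (H2-Ab1, H2-Aa and H2-Eb1).

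Taking the 4 arrays with BCR-ABL as a whole, all of them lay below both vector arrays in 6 of the 8 members, and in 7.85% of all genes. The mean of both BCR-ABL groups was set against vector as an alternative added after seeing the data. H2-Ab1 (−1.30, SE 0.12, adjusted p = 0.0126) and Cd74 (−1.65, SE 0.24, adjusted p = 0.0453) fell, where 0.181% of all genes fell. H2-Aa (−1.21, adjusted p = 0.0507) and H2-Eb1 (−1.30, adjusted p = 0.0528) were just short of the threshold. Ciita was at −0.46 (adjusted p = 0.175).

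BCR-ABL-Blk cells were then compared with BCR-ABL cells, which asks what added Blk does. No member passed (limma, adjusted p = 0.999 for each of the 8), and of all genes 0% passed in either direction. At an unadjusted p under 0.05, 1 member, H2-DMa, was higher (1.47% of all genes were) and 0 were lower (2.49% were). H2-DMa read 10.21 and 10.55 in BCR-ABL-Blk cells, against 9.86 and 10.08 in BCR-ABL cells. The groups did not overlap, and the difference was 0.41 (95% interval 0.07 to 0.75). Cd74 differed by 0.42 (95% interval −0.24 to 1.07), and without BCR-ABL replicate 1 by −0.06. H2-Ab1 differed by 0.16 (95% interval −0.16 to 0.47), H2-Aa by 0.30 (−0.22 to 0.81) and H2-Ob by 0.17 (−0.32 to 0.67). H2-Eb1 differed by −0.06 (−0.62 to 0.50), Ciita by −0.05 (−0.35 to 0.25) and H2-Oa by −0.005 (−0.36 to 0.35). For Cd74 the interval still holds a 2-fold change in this design, so a p above the threshold does not show that the groups are alike.

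**Figure D2:**
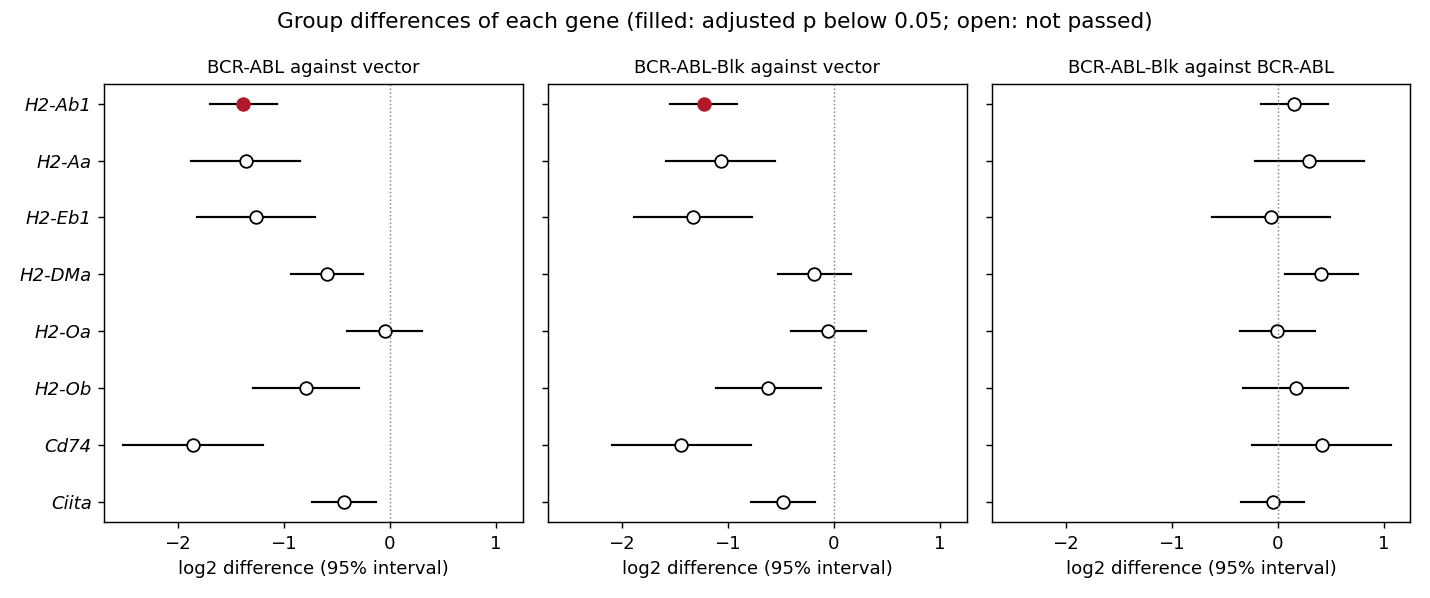
Log2 difference of each gene (x axis, first named group minus second) with its 95% interval in the 3 comparisons, filled where the adjusted p was below 0.05. H2-Ab1 is filled against vector in both BCR-ABL groups, and all points against vector lie left of 0.

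The array also carries H2-Ea and H2-Eb2, class II genes outside the list, named after their values were seen. C57BL/6 mice are known to carry a deletion at the H2-Ea promoter and to make no H2-E on the cell surface. H2-Ea read 5.51 and 5.72 in BCR-ABL-Blk cells, 5.58 and 5.66 in BCR-ABL cells, and 5.77 and 5.64 in vector cells. Its groups overlapped, with a difference of −0.09 between BCR-ABL and vector (95% interval −0.33 to 0.16). H2-Eb2, another beta chain gene, differed by −0.27 in BCR-ABL (adjusted p = 0.562) and by −0.27 in BCR-ABL-Blk cells (adjusted p = 0.508) against vector.

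The proteins that seat Ciita on the X and Y boxes were read next, from a list of 7 genes: Rfx5, Rfxap and Rfxank of the RFX complex, Nfya, Nfyb and Nfyc of NF-Y, and Creb1. None passed in any comparison (adjusted p under 0.05). At an unadjusted p under 0.05, 0 of 7 passed between BCR-ABL and vector, and 2 (Rfx5 and Nfya) were higher between BCR-ABL-Blk and vector, where 5.31% of all genes were higher. Nfya is named here, and Ccr2 below, after their values were seen. The list's median difference was 0.01 in BCR-ABL-Blk and −0.04 in BCR-ABL cells, both taken against vector. Rfx5 read 7.66 and 7.77 in BCR-ABL-Blk cells and 7.40 and 7.44 in BCR-ABL cells, against 7.46 and 7.10 in vector cells. BCR-ABL-Blk arrays were highest (0.44 against vector, adjusted p = 0.372), in the direction opposite to the class II chains. Nfyb was at 0.33 (adjusted p = 0.778) and Rfxank at −0.14 (adjusted p = 0.838) between BCR-ABL and vector.

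Of 12 genes listed around Ciita, most of which switch it on or off, 11 were measured, and 0 passed. The interferon regulatory factor Irf8, which guides monocyte and dendritic cell fate, read 8.60 and 8.61 in BCR-ABL-Blk and 8.17 and 8.47 in BCR-ABL cells, against a mean of 9.65 (SD 0.50, n = 2) in vector cells. All 4 arrays with BCR-ABL lay below vector, with differences of −1.04 in BCR-ABL-Blk (adjusted p = 0.183) and −1.33 in BCR-ABL cells (adjusted p = 0.107). Ifngr1, a chain of the interferon gamma receptor, whose signal induces Ciita, read 10.62 and 10.62 in BCR-ABL-Blk and 10.88 and 10.83 in BCR-ABL cells, against 11.16 and 11.30 in vector cells. It too was lower on every array with BCR-ABL (−0.62 in BCR-ABL-Blk, adjusted p = 0.0688, and −0.38 in BCR-ABL, adjusted p = 0.228). Spi1, the factor PU.1, was at −0.64 (adjusted p = 0.602) in BCR-ABL cells with overlapping arrays, and the kinase Jak1 at 0.16 (adjusted p = 0.616). Against vector the list had a median of −0.27 in BCR-ABL-Blk and −0.18 in BCR-ABL cells.

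Among 12 genes of class II processing and turnover, Cst3 fell and 0 rose in each comparison with vector. Of all genes, 0.0451% fell in BCR-ABL-Blk and 0.0251% in BCR-ABL cells. Cst3, cystatin C, an inhibitor of lysosomal cathepsins, read 12.02 and 12.06 in BCR-ABL-Blk and 12.02 and 12.00 in BCR-ABL cells, against 12.42 and 12.50 in vector cells. The arrays of each group agreed within 0.1, and the difference was −0.42 (SE 0.05, adjusted p = 0.049) in BCR-ABL-Blk and −0.45 (SE 0.05, adjusted p = 0.0368) in BCR-ABL cells. Ctss, the cathepsin that trims the invariant chain in dendritic and B cells, was at −0.92 in BCR-ABL-Blk (adjusted p = 0.176) and −0.61 in BCR-ABL cells (adjusted p = 0.436). Ctsl, the cathepsin with that task in the thymic cortex, was at 0.04 in BCR-ABL-Blk (adjusted p = 0.982) and 0.51 in BCR-ABL cells (adjusted p = 0.563). The Cst3 call ended in both comparisons without any 1 of the BCR-ABL-Blk or BCR-ABL arrays (adjusted p from 0.141 to 0.215 in BCR-ABL-Blk and from 0.0762 to 0.32 in BCR-ABL cells) and with arrays centred on their medians (0.699 in BCR-ABL-Blk, 0.858 in BCR-ABL). The call also ended in both on the 4 arrays of the 2 groups (0.132 in BCR-ABL-Blk, 0.073 in BCR-ABL). So it did without an intensity trend (0.208 in BCR-ABL-Blk, 0.193 in BCR-ABL) and over all probe sets (0.308 in BCR-ABL-Blk, 0.247 in BCR-ABL). In BCR-ABL-Blk cells it also ended with deposited values (0.0604), the replicate block (0.0509), cyclic loess (0.0591) and array weights (0.0586). The median of the list was −0.10 in BCR-ABL-Blk and 0.05 in BCR-ABL cells.

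Of 6 co-stimulation genes none passed. Cd86, a ligand of CD28 on antigen-presenting cells, read 6.89 and 7.07 in BCR-ABL-Blk and 6.80 and 6.92 in BCR-ABL cells, against 7.96 and 7.69 in vector cells. It was lower on all 4 arrays with BCR-ABL (−0.84 in BCR-ABL-Blk, adjusted p = 0.0714, and −0.96 in BCR-ABL, adjusted p = 0.0583). Cd274, the inhibitory ligand PD-L1, was at 0.48 in BCR-ABL-Blk (adjusted p = 0.649) and 0.68 in BCR-ABL cells (adjusted p = 0.515). Of 10 genes of MHC class I presentation, 7 were measured and 0 passed. All 7 had lower means against vector in both groups, with medians of −0.22 in BCR-ABL-Blk and −0.21 in BCR-ABL cells. Of all genes, 48.7% had lower means in BCR-ABL-Blk and 45.6% in BCR-ABL cells. The peptide transporter Tap1 was at −0.33 in BCR-ABL-Blk (adjusted p = 0.545) and −0.37 in BCR-ABL cells (adjusted p = 0.547).

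**Figure D3:**
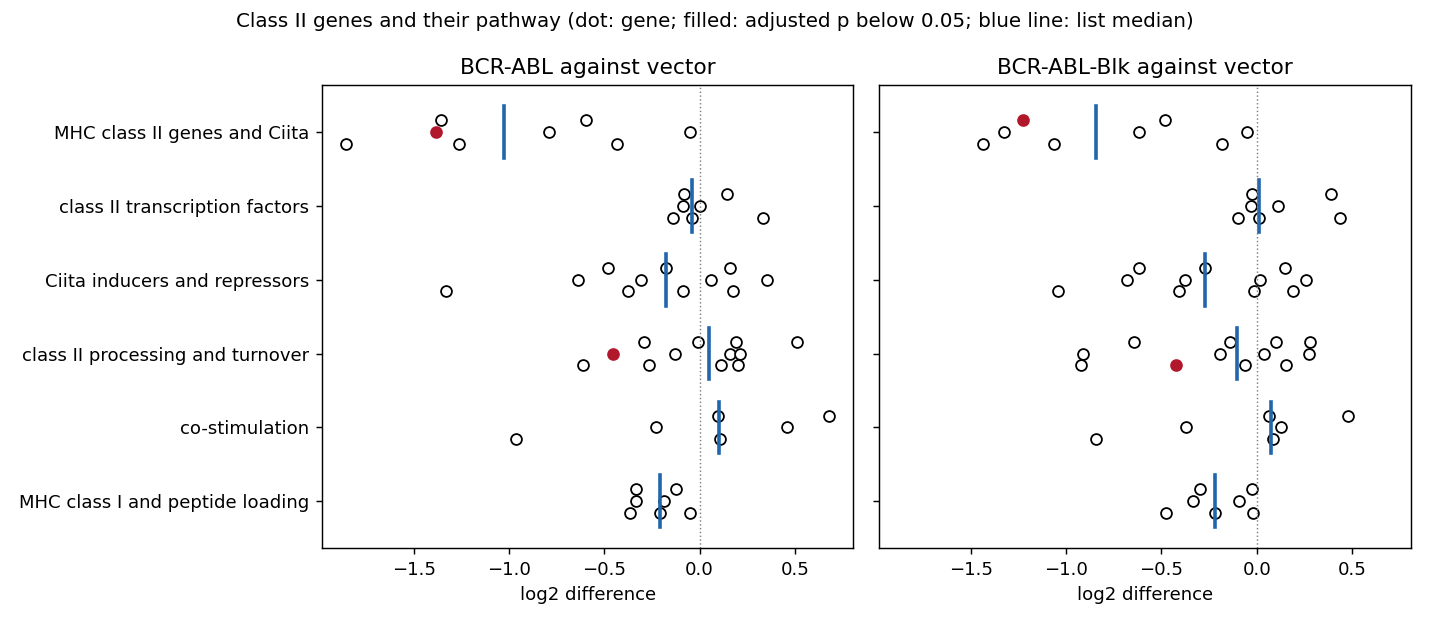
Log2 differences against vector (x axis) of the 8 class II genes and of 5 lists of the pathway, a dot per gene, filled where the adjusted p was below 0.05, with blue lines for list medians. Of the lists shown, the class II genes have the lowest median in both panels (−0.84 in BCR-ABL-Blk cells, −1.03 in BCR-ABL cells). The medians of the class II transcription factors lie near 0 (0.01 in BCR-ABL-Blk cells, −0.04 in BCR-ABL cells). B cell markers, not drawn here, had lower medians (−1.21 in BCR-ABL-Blk cells, −1.54 in BCR-ABL cells). So had monocyte and macrophage markers in BCR-ABL-Blk cells (−0.94).

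The lists of B cell, monocyte and dendritic cell markers had lower averages on the same arrays as the members. The sort kept cells without lineage markers, a gate that would remove mature B cells and monocytes, and these data do not show which cells the marker signal came from. In such bulk samples, fewer cells of a type and less RNA per cell cannot be told apart. Of 11 measured B cell markers, 10 had lower means in BCR-ABL than in vector cells (median −1.54), where 45.6% of all genes did. The average B cell marker level was 8.17 and 7.86 in BCR-ABL-Blk and 7.64 and 7.98 in BCR-ABL cells, against 9.98 and 8.74 in vector cells. All 10 monocyte and macrophage markers were lower in BCR-ABL (median −0.82), with averages of 8.04 and 8.13 in BCR-ABL-Blk and 8.07 and 8.44 in BCR-ABL cells, against 9.12 and 9.02 in vector cells. Of 12 dendritic cell markers, 10 were lower in BCR-ABL (median −0.22), with averages of 7.48 and 7.56 in BCR-ABL-Blk and 7.54 and 7.50 in BCR-ABL cells, against 8.11 and 7.89 in vector cells. In each of these lists both vector arrays stood above the other 4. No marker of these 3 lists passed between BCR-ABL and vector (limma, adjusted p under 0.05), and 8 B cell, 7 monocyte and 5 dendritic cell markers were lower at an unadjusted p under 0.05, where 2.96% of all genes were. In BCR-ABL-Blk cells the chemokine receptor gene Ccr2, a monocyte marker, fell (−1.38, SE 0.17, adjusted p = 0.049), with 8.95 and 8.83 in BCR-ABL-Blk cells, against 10.15 and 10.38 in vector cells. That call ended without any 1 of the BCR-ABL-Blk or BCR-ABL arrays (adjusted p from 0.0988 to 0.237), with the replicate block (0.0522) and with every other scaling, weight or feature setting except deposited values and genes above the median level. Their part in the class II differences was not tested.

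The markers with the smallest p in these lists lay further from vector than most of their list. Blnk differed by −3.20 and Xcr1 by −1.72 between BCR-ABL and vector, while the list medians were −1.54 and −0.22. Rag1 (−2.98) and Vpreb1 (−1.74), genes of early B cell stages, also lay below the median of the B cell list. Blnk, a B cell adaptor, read 6.95 and 6.52 in BCR-ABL-Blk and 6.09 and 6.38 in BCR-ABL cells, against 10.31 and 8.56 in vector cells. Xcr1, a receptor of cross-presenting dendritic cells, read 7.23 and 6.68 in BCR-ABL-Blk and 7.25 and 6.77 in BCR-ABL cells, against 8.87 and 8.60 in vector cells. Mpeg1, the macrophage pore protein perforin-2, read 8.05 and 8.40 in BCR-ABL-Blk and 8.10 and 8.60 in BCR-ABL cells, against 9.84 and 9.45 in vector cells. Blnk, Xcr1 and Mpeg1 each separated both BCR-ABL groups from vector. Other markers, named after their values were seen, differed little between BCR-ABL and vector. In the B cell list these were Ms4a1 (0.16), Cd22 (−0.12) and Cd24a (−0.07). In the dendritic cell list they were Batf3 (−0.12), Zbtb46 (−0.08), Cd209a (0.003) and Cd83 (0.01). In the monocyte and macrophage list, the arrays of Cd14 (−0.19), Adgre1 (−0.35) and Fcgr1 (−0.40) overlapped between BCR-ABL and vector. T cell markers read low and even, with averages from 6.23 to 6.36 on the arrays with BCR-ABL and of 6.34 and 6.21 on the vector arrays. Against vector, the 8 neutrophil markers had a median of −0.72 in BCR-ABL-Blk and −0.21 in BCR-ABL cells, and the 7 erythroid markers −0.46 in BCR-ABL-Blk and −0.28 in BCR-ABL cells. At an unadjusted p under 0.05, 7 neutrophil and 5 erythroid markers were lower in BCR-ABL-Blk cells, where 4.11% of all genes were. In BCR-ABL cells 3 of each were lower, where 2.96% of all genes were. The erythroid average was also higher on both vector arrays than on the other 4. Of the markers of the sorted cells, Kit read from 10.33 to 10.92 and Cd34 from 11.54 to 11.97 on all arrays. Against vector, Kit was at −0.28 in BCR-ABL-Blk (adjusted p = 0.638) and −0.39 in BCR-ABL cells (adjusted p = 0.533). Cd34 was at 0.36 in BCR-ABL-Blk (adjusted p = 0.158) and 0.20 in BCR-ABL cells (adjusted p = 0.507). Both BCR-ABL arrays lay below vector for Kit and above it for Cd34. Meis1, a stem cell homeobox gene, rose in BCR-ABL-Blk (1.08, adjusted p = 0.049, where 0.0953% of all genes rose) and was at 0.96 in BCR-ABL cells (adjusted p = 0.0565). The Meis1 call ended in the same settings as that of Ccr2 (adjusted p from 0.15 to 0.237 without any 1 of the BCR-ABL-Blk or BCR-ABL arrays). The list of 8 such genes had a median of 0.64 in BCR-ABL against vector, opposite in sign to the class II genes.

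The vector replicates differed from each other in several marker lists and in some members. All 11 B cell markers were higher on vector replicate 1 than on replicate 2, by a median of 1.32. So were 11 of 12 dendritic cell markers (median 0.18), all 7 T cell markers (0.08) and 5 of 7 erythroid markers (0.47), while all 8 neutrophil markers were lower there (−0.40). Monocyte and macrophage markers went both ways, with 5 of 10 higher on replicate 1 (median 0.03). Among them, Adgre1 was at 1.73 and F13a1 at −1.24. H2-Aa (0.71), H2-Ob (0.62) and H2-Eb1 (0.52) were also higher on replicate 1. H2-Ab1 (0.00), Cd74 (0.03), H2-DMa (−0.06) and H2-Oa (−0.08) differed little, and Ciita was lower on replicate 1 (−0.27). This sorting was made after the values were seen. Without vector replicate 1 the BCR-ABL differences were −1.38 for H2-Ab1, −1.83 for Cd74 and −1.003 for H2-Aa. Without vector replicate 2 they were −1.39 for H2-Ab1, −1.89 for Cd74 and −1.72 for H2-Aa. The B cell average on vector replicate 2 (8.74) was still above those of all 4 arrays with BCR-ABL, and the part of these markers was not tested.

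**Figure D4:**
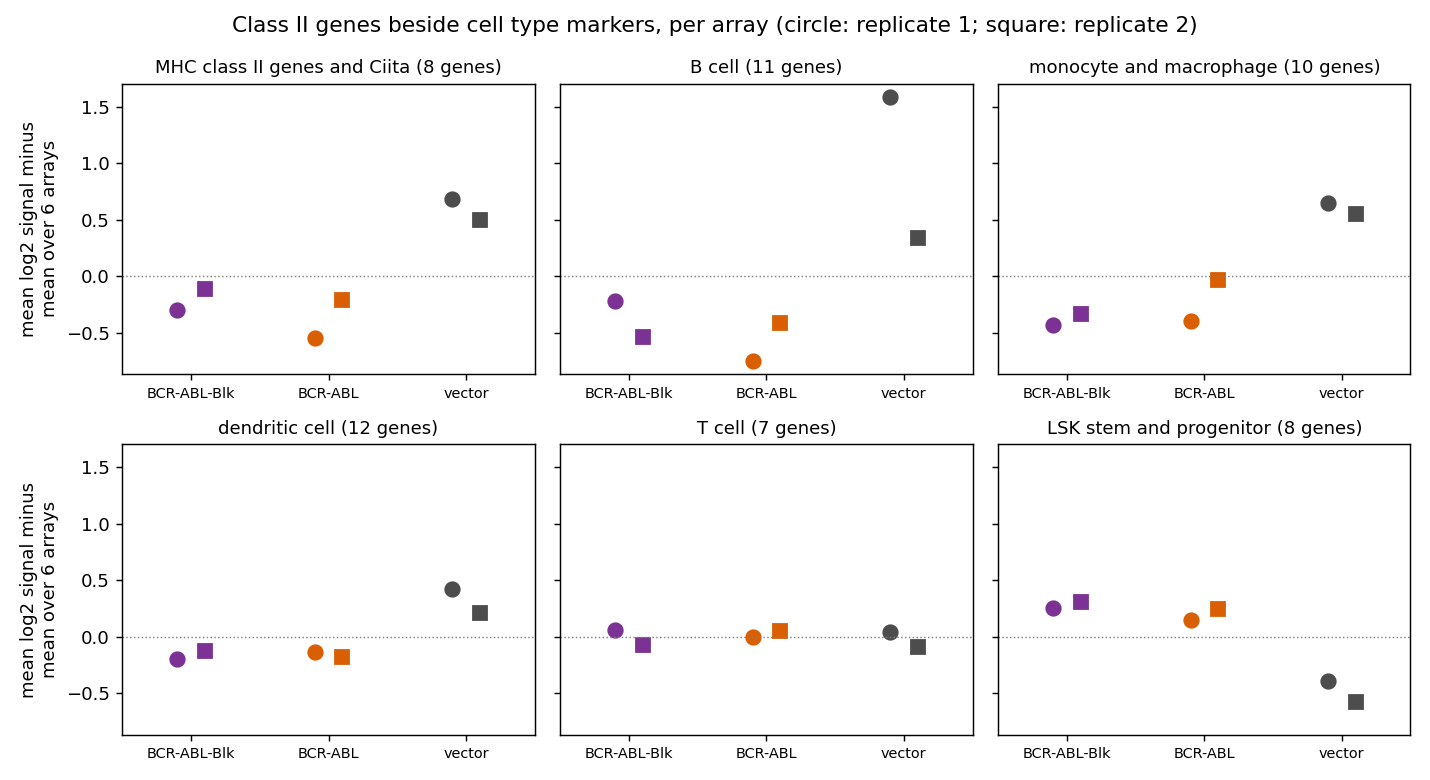
Mean log2 signal of each gene list on each array, minus its mean over the 6 arrays (y axis), for the BCR-ABL-Blk, BCR-ABL and vector groups, with circles for replicate 1 and squares for replicate 2. Class II genes, B cell, monocyte and dendritic cell markers are highest on both vector arrays, stem and progenitor genes are lowest there, and T cell markers are level.

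The genes whose pattern was most like the classical class II genes were ranked by Pearson correlation over the 6 arrays with the mean of H2-Aa, H2-Ab1, H2-Eb1 and Cd74, among 9962 genes above the median level. All 6 points share the gap between the vector arrays and the other 4, so the values are a description. The 8 closest were Plbd1 (r = 0.994), Satb1 (0.986), Cd300c2 (0.985), Tma7 (0.985), Akna (0.984), Trim12a (0.984), Tmem138 (0.983) and Mpeg1 (0.978). Above 0.95 there were 36 genes, 0.361% of those ranked. Plbd1, a phospholipase-like gene, read 9.32 and 9.72 in BCR-ABL-Blk and 9.13 and 9.60 in BCR-ABL cells, against 10.82 and 10.63 in vector cells. Satb1, a chromatin organizer, read 10.22 and 10.17 in BCR-ABL-Blk and 9.95 and 10.31 in BCR-ABL cells, against a mean of 10.96 (SD 0.05, n = 2) in vector cells. Both had their lowest value on BCR-ABL replicate 1 and their highest values on the vector arrays. Among members outside that mean, H2-Ob (r = 0.936) and Ciita (0.867) followed it most closely, then H2-DMa (0.782), and H2-Oa least (0.418).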

How the data were processed

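The deposited table gives 1 log2 value with 2 decimals for each of 35557 probe sets on 6 whole-transcript arrays. The authors made these log2 values with Affymetrix Expression Console 1.1 and RMA, per the submitters' processing notes; neither its options nor a genome build is stated there. Arrays were quantile normalized because the columns did not share a distribution. Probe sets with a single symbol in the platform annotation were kept (21789; 1621 had several), and the one with the highest mean per gene, which left 19938 genes. Groups came from the sample titles. Differences were tested with limma 3.58.1 in R 4.3.3 (lmFit and eBayes with an intensity trend) on all 6 arrays, with 3 residual and 4.40 prior degrees of freedom. P-values were two-sided and Benjamini-Hochberg adjusted over all genes. The fit was also run on simulated arrays with independent errors and no shift between arrays. That run does not show how the fit handles such shifts. Markers of the gene lists matched by symbol or RefSeq synonym; those without a probe set of their own are not reported here. Named list genes were chosen among the 4 smallest p of each list in BCR-ABL against vector. Exceptions were Kit, Cd34 and the genes stated to be named after their values were seen. Members and lists were chosen with earlier results of these data known. The X box was first searched in a longer spelling, which fewer promoters held and which matched the same members. Labels and headers name no batch. Alternatives covered scaling, filter, features, samples, weights, trend, block and each array left out. Figures were drawn with matplotlib 3.10.9.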

Additional observations from a re-analysis of the deposited data

How the results depend on the processing

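Over 16 alternatives the difference of each member was recomputed 365 times in all: 318 kept direction and side of the threshold, 18 were newly past it, 15 were no longer past it and 14 turned sign. Between BCR-ABL and vector the main count of members called was 1; it was 6 with deposited values, 0 with arrays centred on their medians, 0 without an intensity trend, 0 over all probe sets, 2 over genes above the median level, 2 for the mean of both BCR-ABL groups, and 0 to 4 with an array left out. Between BCR-ABL-Blk and vector it was 1; it was 4 with deposited values, and 0 with arrays centred on their medians, with cyclic loess, on the 4 arrays of the 2 groups, with array weights, without an intensity trend or over all probe sets, and 0 to 3 with an array left out. Between BCR-ABL-Blk and BCR-ABL it was 0, and 1 with deposited values (H2-DMa, 0.62, adjusted p = 0.0436); with an array left out it stayed at 0. Deposited values shift the median gene by −0.11, 0.15 and 0.26 in these comparisons, and their fit had an infinite prior degree of freedom, so their p-values rest on a common variance. Over all genes they called 176 higher and 225 lower in BCR-ABL, and 562 higher and 170 lower in BCR-ABL-Blk against vector, where the main counts were 24 and 5, and 19 and 9; centring gave 21 and 5, and 16 and 6. H2-Ab1 stayed below 0 against vector throughout, from −1.55 to −1.20 in BCR-ABL (called in 11 of 16 alternatives, adjusted p up to 0.247) and from −1.32 to −1.03 in BCR-ABL-Blk (called in 5 of 15, adjusted p up to 0.31). H2-Oa against vector ran from −0.158 to 0.0655 in BCR-ABL with an array left out (above 0 without BCR-ABL replicate 1). In BCR-ABL-Blk it ran from −0.1425 to 0.0385 (above 0 without BCR-ABL-Blk replicate 1), and was 0.12 with deposited values. In BCR-ABL-Blk against BCR-ABL, deposited values gave 0.20 for H2-Eb1, 0.27 for H2-Oa and 0.24 for Ciita, and cyclic loess gave 0.0157 for H2-Oa. There, with an array left out, H2-Ab1 ran from −0.019 to 0.334 and Cd74 from −0.064 to 0.882 (lowest without BCR-ABL replicate 1), H2-Eb1 from −0.307 to 0.182, H2-Oa from −0.118 to 0.107 and Ciita from −0.114 to 0.014 (highest without BCR-ABL replicate 2). The causes were not tested. With the replicate number as a block, 1, 1 and 0 members were called, as without it. Same-numbered replicates did not deviate together (r from −0.06 to 0.08 over genes). That cannot exclude a shared day, which the labels do not give. Where an array was left out, its group's remaining array was taken to vary like the other groups. Ciita had no value in the filter on level. Signal over background was not measured.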
